A study of Mus musculus with 12 samples.

Results

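The genes described here encode the glutathione, thioredoxin and NADPH machinery of maturing mouse red cell precursors: 39 genes named in a list of antioxidant and NADPH-forming genes, many of them targets of the transcription factor NRF2. All 39 symbols were found, each once, among the 55487 rows of the expression tables. RNA came from G1E-ER4 cells, 1 cell line of mouse erythroid progenitors without functional Gata1 into which a fusion of GATA1 with the estrogen receptor ligand-binding domain was introduced; estradiol switches the fusion on and the cells mature toward red cells. Every culture grew in 15% fetal bovine serum with 2 U/mL erythropoietin and medium conditioned by cells that make Kit ligand, and every culture received 100 nM β-estradiol for 24 h, so the 4 groups share the transgene and the inducer. The control group had nothing further. The DTPA group also had 50 µM DTPA, a chelator used to lower zinc. The DFO group had 50 µM DFO, an iron chelator. The SA group had 0.2 mM SA, given to inhibit ALAD and so lower protoporphyrin IX (the sample titles and treatment tags name SA, while the protocol text names DFO for these cells; the titles were followed). Each group held 3 libraries, described as biological replicates.

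Glutathione and thioredoxin are the main thiol systems that keep cellular proteins reduced and remove peroxides. Glutathione is made by glutamate-cysteine ligase and glutathione synthetase, and both oxidized glutathione and oxidized thioredoxin are returned to the reduced form by enzymes that spend NADPH. Red cells carry oxygen and iron at high concentration and make most of their NADPH in the pentose phosphate pathway, and mature red cells hold peroxiredoxin 2, catalase and glutathione peroxidase 1 in large amounts. NRF2 activates many of these genes through antioxidant response elements, and BACH1, a repressor that heme removes from DNA, competes for a related element.

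Values are TPM, transcript abundances corrected for length and scaled to the same total in every library, so levels can be compared between genes. The spacing of the low values corresponded to between 19857418 and 24326305 reads per library. Each log2 fold change comes from a limma fit of log2(TPM + 1) to all 12 libraries, and such values understate changes of genes near 1 TPM. Fold values divide one group mean TPM by the other. A gene was called when its p, adjusted by Benjamini and Hochberg over the 11917 genes tested (at least 1 TPM in at least 3 libraries), was under 0.05. Genes that respond to metals served as a check of the treatments. Mt1, a metallothionein gene driven by zinc, was at 122 ± 3.52 TPM with DTPA against 1872 ± 71.4 TPM in control (mean ± SD, n = 3). Tfrc, the transferrin receptor gene whose mRNA is protected from decay in iron-poor cells, was at 1245 ± 48.8 TPM with DFO against 883 ± 24.1 TPM. It was lower than control with DTPA (774 ± 21.4 TPM) and with SA (626 ± 20.9 TPM). By the direct limma test Tfrc was 1.99-fold higher with DFO than with SA (adjusted p = 1.34e-07), so the libraries titled SA and DFO were unlike in this gene. All 11 erythroid markers examined were measured, and their summed level was between 37561 and 40774 TPM in control, 41767 and 43473 with DTPA, 28345 and 30291 with DFO, and 23119.8 and 23707 with SA. Of 9 megakaryocyte markers 4 were measured. The sum over all 9 was between 8.23 and 9.34 TPM in control and between 36.5 and 45.8 TPM with DTPA, while Gp1bb and Ppbp were at 0 in every library. Summed markers of mast cells, granulocytes with macrophages, and lymphoid cells stayed at or below 3.10 TPM in every library. The mast cell sum was between 0.206 and 0.281 TPM in control and between 2.34 and 3.10 with DTPA, and the lymphoid sum between 0.361 and 0.757 TPM in control and between 1.37 and 2.04 with DTPA. The part of these shifts in the results was not tested, and in bulk RNA fewer cells of a type and less RNA per cell cannot be told apart.

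Of the 39 genes, 36 passed the filter on low values. One of them, Mgst2, passed only through the DTPA libraries, in which it was high. The 3 that did not pass were the glutathione transferase genes Gstm1 and Gstm5 and the NRF2 target Osgin1. Gstm5 had no read in any library, and Gstm1 had 4 reads and 1 read in 2 DFO libraries and none elsewhere; a count of 0 allows up to 3 reads, between 0.253 and 0.376 TPM for these 2 genes, for counting error only. Osgin1 had 6, 3 and 3 reads in control, 5, 3 and 3 with DTPA, 1, 0 and 0 with DFO and 0, 1 and 1 with SA. The tested members were abundant, with a median control level of 87.4 TPM against 19.0 TPM over all genes tested. As a share of total TPM, the sum of the 39 genes came to 1.56% ± 0.0171 for control (mean ± SD, n = 3). It came to 1.22% ± 0.00526 for DTPA, 1.49% ± 0.0103 for DFO and 1.41% ± 0.00942 for SA.

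More of these genes were called lower than higher with each treatment. With DTPA 24 of 36 were lower and 8 higher by limma, against a background of 42.1% of all genes tested lower and 23.5% higher. The members' share of higher calls, 22.2%, was near that background, and their share of lower calls was 66.7%. Mgst2 could enter the test only by being high with DTPA; without it 7 of 35 were higher. With DFO 14 were lower (38.9%, background 2.28%) and 1 was higher (2.78%, background 8.39%). With SA 21 were lower (58.3%, background 6.75%) and 3 were higher (8.33%, background 15.4%). The median log2 fold change of the members was -0.34 with DTPA, -0.04 with DFO and -0.13 with SA, beside -0.11, 0.05 and 0.05 over all genes tested. Abundant genes are called more readily, so the shares were also read among genes with a mean of at least 10 TPM, a limit chosen after the values were seen: of 32 such members 68.8%, 40.6% and 62.5% were lower with DTPA, DFO and SA, against backgrounds of 53.4%, 3.22% and 9.53%. The 3 comparisons share the control libraries, so their calls are not independent.

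The direction of small DTPA changes depends on the scaling. Median-of-ratios scaling moved the median log2 fold change of all genes by 0.115 for DTPA against control, and turned the split over all genes from 2796 higher and 5014 lower into 3842 and 3859. Under it 9 members, Mgst2 among them, were higher with DTPA and 20 lower. For DFO the same scaling gave 0 members higher and 16 lower with all genes at 423 higher and 646 lower (1000 and 272 as deposited), and for SA it gave 2 and 22 with all genes at 1124 and 1624 (1838 and 804 as deposited).

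**Figure D1:**
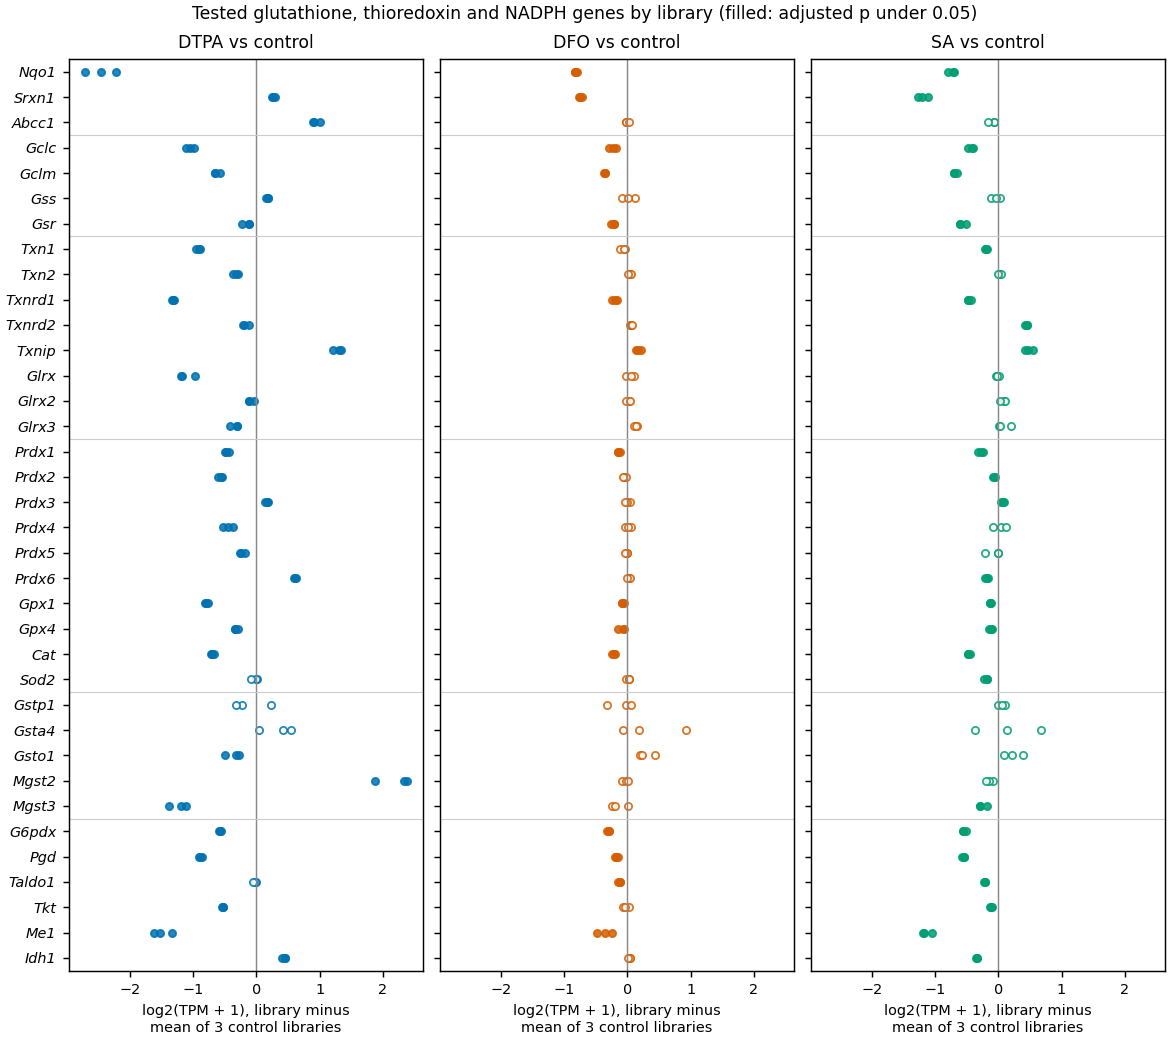
Each tested member (rows, grouped by role) in each treated library (points), as log2(TPM + 1) minus the mean of the 3 control libraries, for DTPA, DFO and SA; filled points mark members with an adjusted p under 0.05. Points spread widely with DTPA, from Nqo1 (-2.46 on average) to Mgst2 (2.19); the lowest means are those of Nqo1 with DFO (-0.82) and Srxn1 with SA (-1.20).

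Of the 36 tested members, 12 (33.3%) were lower with each of the 3 treatments, against 1.07% of all genes tested: Nqo1, Txnrd1, Gclm, Gclc, Gsr, Gpx1, Gpx4, Prdx1, Cat, Me1, G6pdx and Pgd. Among these 12, the DFO calls of Gsr, Gpx1, Gpx4, Me1 and Pgd and the DTPA call of Gsr were lost under some alternative. Txnip alone was higher with all 3. Srxn1 was higher with DTPA and lower with DFO and SA, Prdx6 and Idh1 were higher with DTPA and lower with SA, and Txnrd2 was lower with DTPA and higher with SA. Gstp1 and Gsta4 were called in no comparison with control. Calls against control were followed through every alternative in which the gene was tested. With DTPA 20 of 24 lower and 7 of 8 higher calls held in all of them. With DFO 9 of 14 lower and 0 of 1 higher held, and with SA 19 of 21 lower and 2 of 3 higher. The 7 include Mgst2, which could enter the test only by being high with DTPA and was not tested at a minimum of 5 TPM.

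Promoter sequence of members is shown as a description, beside letters that NRF2 and BACH1 recognise. RefSeq promoters (GRCm38.p6, 250 bases before to 50 after a gene's start) were found for 34 of the 39 members and were searched on both strands for the antioxidant response element core TGACNNNGC, which can overlap the AP-1 and NF-E2 core TGACTCA. A match was found in 8 of the 34 members (23.5%), against 14.0% of all 27025 genes with a promoter, and 12.4% of all 32851 promoters held one. The 34 members had 47 promoters. Many members were put on the list as NRF2 targets, so their share tells nothing about the treatments. Of the 12 members lower with all 3 treatments 10 had a promoter and 6 of these held a match. These 12 come from that same list and were picked by their calls, so this count too tells nothing about the treatments. Nqo1, Gpx1, Gpx4 and Cat were searched and held none in this window, and sequence farther from the start was not searched. Gclc and Gsr had no promoter to search. RefSeq starts need not be those of the GENCODE genes whose positions are given. The promoters that gave the matches of Txnrd1, G6pdx and Pgd lie wholly inside the GENCODE span of their gene, not ahead of it. For Pgd the promoter ends at 149166332, while the gene reaches 149166771 on the minus strand. These matches are counted among the 6. In the Pgd window a run of t and then cag come before the match. The letters after that cag can be read, in a frame, as codons without a stop. The Pgd match may thus lie in coding sequence and not in a promoter, which was not tested. The windows below read 5′ to 3′ on the gene's strand with the match in capitals; a match that starts with GC is the core on the opposite strand.
Prdx1, chr4:116685436-116685504, plus strand: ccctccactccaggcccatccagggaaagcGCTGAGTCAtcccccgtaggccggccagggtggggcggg
Me1, chr9:86695882-86695950, minus strand: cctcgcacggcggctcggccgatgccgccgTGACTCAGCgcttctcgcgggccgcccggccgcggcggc
G6pdx, chrX:74428899-74428967, minus strand: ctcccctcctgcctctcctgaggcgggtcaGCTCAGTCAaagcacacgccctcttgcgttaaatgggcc
Gclm, chr3:122245393-122245461, plus strand: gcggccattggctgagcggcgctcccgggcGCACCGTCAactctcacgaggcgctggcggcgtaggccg
Txnrd1, chr10:82859084-82859152, plus strand: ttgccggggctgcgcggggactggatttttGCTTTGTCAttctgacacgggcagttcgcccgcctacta
Pgd, chr4:149166041-149166109, minus strand: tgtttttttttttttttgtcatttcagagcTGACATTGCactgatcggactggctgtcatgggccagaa
Srxn1, chr2:152105522-152105573, plus strand: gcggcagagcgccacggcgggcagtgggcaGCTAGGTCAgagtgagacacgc

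The matches of Prdx1 and Me1 are the 2 that also hold TGACTCA. The matches begin 133 bases before the RefSeq start for Prdx1, 134 for Gclm, 92 for Txnrd1, 57 for G6pdx and 6 for Me1. For Pgd and Srxn1 they begin at positions 4 and 29 counted from that start. The other member with a match was Gstm5, which had no read. These are matches of letters in a short window, and no binding was measured.

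Nqo1, a quinone reductase gene much used as a readout of NRF2, had the deepest fall of the list with DTPA. It stood at 41.0, 35.4 and 37.9 TPM in control and at 4.97, 7.40 and 6.09 TPM with DTPA, 20.9, 21.5 and 21.0 with DFO and 22.8, 21.6 and 23.0 with SA. No treated library reached the lowest control, and the DTPA libraries lay far below the other treated ones. The fall was 6.19-fold with DTPA (log2 fold change -2.46, SE 0.0988, adjusted p = 9.31e-10), 1.80-fold with DFO (adjusted p = 5.29e-04) and 1.69-fold with SA (adjusted p = 3.17e-04), while the direct test of DFO against SA missed the threshold (log2 fold change -0.08, SE 0.0988, adjusted p = 0.638). Nqo1 lies on chromosome 8 from 107388225 to 107403206 (GRCm38, mm10); like all 39 members it is a protein-coding gene, and its values count reads over its exons.

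Srxn1 encodes sulfiredoxin, which repairs overoxidized peroxiredoxins, and it split the treatments. Its level was 73.9, 67.4 and 73.6 TPM in control, 85.3, 86.3 and 88.3 with DTPA, 42.2, 43.2 and 41.7 with DFO and 32.6, 30.3 and 29.1 with SA. The 4 groups did not overlap. Srxn1 rose by 0.27 in log2 with DTPA (SE 0.0443, adjusted p = 1.94e-04), and fell 1.69-fold with DFO (adjusted p = 1.09e-05) and 2.34-fold with SA (adjusted p = 3.94e-08). It was 2.83-fold higher with DTPA than with SA by the direct comparison (adjusted p = 8.02e-11). It lies on chromosome 2 from 152105516 to 152111376. Abcc1, the MRP1 pump that exports glutathione conjugates, was the other riser in this group. It went from 10.8, 10.3 and 11.1 TPM in control to 20.7, 22.5 and 21.0 TPM with DTPA (1.99-fold, adjusted p = 1.15e-08), and did not pass with DFO (10.5, 10.6 and 11.0 TPM) or SA (10.2, 10.2 and 9.43 TPM; adjusted p = 0.196, and 0.0457 under median-of-ratios scaling). Nqo1 and Srxn1, both counted as NRF2 targets, thus moved in opposite directions with DTPA and in the same direction with DFO and SA.

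**Figure D2:**
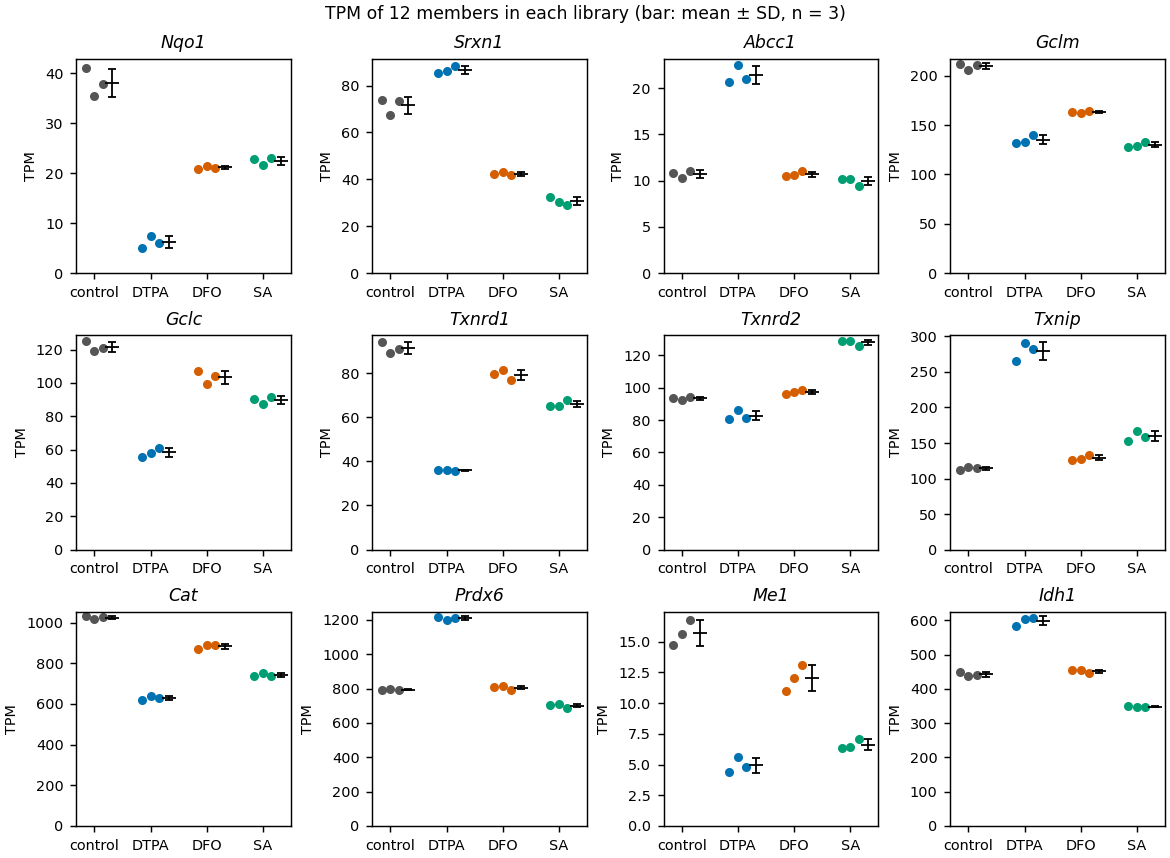
TPM (vertical axes, starting at 0) of 12 members in every library of control, DTPA, DFO and SA; points are libraries and the bar beside them is the mean ± SD (n = 3). Srxn1, Abcc1, Prdx6 and Idh1 lie above control with DTPA, while Nqo1, Gclc, Txnrd1, Cat and Me1 lie below it with all 3 treatments.

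Both subunits of glutamate-cysteine ligase, the rate-limiting enzyme of glutathione synthesis, fell with every treatment. Gclc, the catalytic subunit, stood at 125, 119 and 121 TPM in control, 55.8, 58.1 and 61.0 with DTPA, 107, 99.1 and 104 with DFO and 90.6, 87.2 and 91.8 with SA. Its lowest control library lay above every treated library. The fall was 2.09-fold with DTPA (log2 fold change -1.05, SE 0.0376, adjusted p = 3.43e-10), 1.18-fold with DFO (adjusted p = 0.00262) and 1.36-fold with SA (adjusted p = 1.20e-05). Gclm, the modifier subunit, stood at 212, 206 and 210.4 TPM in control, 132, 133 and 140.1 with DTPA, 163, 162 and 164 with DFO and 128, 129 and 133 with SA. For Gclm the DTPA and SA libraries overlapped and their difference missed the threshold (log2 fold change 0.05, SE 0.0253, adjusted p = 0.0941; 0.0453 without SA replicate 3). Gclm was called higher with DTPA than with SA under median-of-ratios scaling (0.24, adjusted p = 2.28e-06), without globin genes (0.10, 0.00273) and with voom (0.15, 1.16e-05), whereas Gclc was 0.62 lower in log2 with DTPA than with SA (adjusted p = 3.84e-08). In mean TPM Gclm exceeded Gclc in all 4 groups (209 against 122 in control and 135 against 58.3 with DTPA). Gclc lies on chromosome 9 from 77754535 to 77794485 and Gclm on chromosome 3 from 122245557 to 122270732.

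Of the enzymes that finish and recycle glutathione, Gsr was called lower with each treatment and Gss was not. Gss, glutathione synthetase, was at 13.7, 12.3 and 12.6 TPM in control and 14.7, 14.4 and 14.7 TPM with DTPA (log2 fold change 0.18, adjusted p = 0.0275). That call was lost on leaving out control replicate 2 or 3 or DTPA replicate 1 or 3 (adjusted p between 0.0155 and 0.0948 over the 6 fits), and Gss did not pass with DFO or SA. Exons of Gss overlap Acss2 on the opposite strand, which averaged 29.8 TPM in control and 72.5 with DTPA, and its part in the Gss result was not tested; whether the counting used strand is not stated. Gsr, glutathione reductase, which spends NADPH, was at 86.0, 74.9 and 86.4 TPM in control and fell clear of that range with SA (57.3, 53.9 and 53.5 TPM, log2 fold change -0.58, adjusted p = 2.03e-05). With DTPA (70.2, 75.4 and 75.6 TPM) its libraries overlapped the controls; the call (adjusted p = 0.0223) was lost without control replicate 1 or 3 or DTPA replicate 1 (up to 0.0912), with voom on recovered reads (0.119) and under median-of-ratios scaling (adjusted p = 0.681). With DFO Gsr was at 68.5, 70.7 and 71.3 TPM (adjusted p = 0.0208; lost without control replicate 1 or 3 or DFO replicate 1 or 2, at up to 0.0786).

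In the thioredoxin system the cytosolic pair fell with DTPA and SA. Txn1, cytosolic thioredoxin, was at 472, 444 and 441 TPM in control, 243, 240.4 and 234 with DTPA, 417, 440.0 and 434 with DFO and 400.2, 396 and 392 with SA. It fell 1.89-fold with DTPA (adjusted p = 1.24e-10) and 1.14-fold with SA (adjusted p = 7.85e-04), and missed the threshold with DFO (adjusted p = 0.153), where median-of-ratios scaling called it (-0.13, adjusted p = 0.0320). Txnrd1, the cytosolic selenoprotein reductase that recharges thioredoxin with NADPH, was at 94.2, 89.2 and 90.9 TPM in control, 36.0, 36.3 and 35.8 with DTPA, 79.6, 81.4 and 76.8 with DFO and 65.0, 65.2 and 67.7 with SA. The 4 groups did not overlap, in the order control, DFO, SA and DTPA. Its fall was 2.54-fold with DTPA (log2 fold change -1.32, SE 0.0295, adjusted p = 6.52e-12), 1.15-fold with DFO (adjusted p = 0.00164) and 1.39-fold with SA (adjusted p = 1.65e-06). Txnrd1 lies on chromosome 10 from 82833951 to 82897712 and Txn1 on chromosome 4 from 57943373 to 57956411.

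The mitochondrial pair was also called lower with DTPA, by less, but was not lower with SA. Txnrd2, the mitochondrial reductase, was at 93.7, 92.2 and 94.3 TPM in control and rose to 129, 129 and 126 TPM with SA (1.37-fold, adjusted p = 7.83e-07). With DTPA it lay at 80.7, 86.0 and 81.3 TPM (adjusted p = 9.05e-05; with median-of-ratios scaling 0.158). With DFO at 95.9, 97.2 and 98.4 TPM it did not pass (adjusted p = 0.197). Txn2, mitochondrial thioredoxin, fell 1.26-fold with DTPA (66.2 ± 1.80 against 83.4 ± 0.859 TPM, adjusted p = 3.54e-07) and did not pass with DFO (85.6 ± 1.59 TPM) or SA (84.6 ± 1.52 TPM).

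Txnip, which binds thioredoxin and restrains both it and glucose uptake, was the 1 member called higher with every treatment. It was at 112, 116 and 115 TPM in control, 265, 290.2 and 283 with DTPA, 126, 128 and 133 with DFO and 153, 167 and 158 with SA. No treated library fell into the control range. The rise was 2.45-fold with DTPA (log2 fold change 1.28, SE 0.0396, adjusted p = 1.00e-10) and 1.40-fold with SA (adjusted p = 1.02e-05). With DFO it was 0.17 in log2 (adjusted p = 0.0179), a call lost without control replicate 1 or DFO replicate 3 (up to 0.0675) and under median-of-ratios scaling (0.0986). Txnip lies on chromosome 3 from 96557957 to 96561883.

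Glutaredoxins use glutathione to reduce protein disulfides. Glrx, the cytosolic enzyme, was at 16.2, 14.9 and 15.4 TPM in control and at 6.29, 7.45 and 6.23 TPM with DTPA (2.33-fold lower, adjusted p = 2.32e-08), against 15.3, 16.8 and 16.1 TPM with DFO and 15.6, 15.0 and 15.3 TPM with SA. Only the DTPA libraries left the control range on the low side. Glrx3, a cytosolic carrier of iron-sulfur clusters, fell 1.27-fold with DTPA (36.0 ± 1.63 against 45.9 ± 1.63 TPM, adjusted p = 8.89e-05). Glrx2, the mitochondrial enzyme, was at 46.3 ± 1.37 against 49.3 ± 1.26 TPM; its call (-0.09 in log2, adjusted p = 0.0356) was lost without control replicate 1 or 3 or DTPA replicate 1 or 2, and median-of-ratios scaling turned the sign (0.04, adjusted p = 0.296). None of the 3 passed with DFO or SA, with adjusted p between 0.114 for Glrx3 with DFO and 0.898 for Glrx with SA.

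Enzymes that remove peroxides and superoxide include the most abundant members, and 7 of 10 fell with DTPA. Gpx1, the selenoprotein glutathione peroxidase of the cytosol, was the highest of all 39 at 3945, 3854 and 3887 TPM in control, with 2286, 2207 and 2245 with DTPA, 3692, 3689 and 3764 with DFO and 3605, 3543 and 3569 with SA. All treated libraries lay below the controls. It fell 1.73-fold with DTPA (log2 fold change -0.79, SE 0.0178, adjusted p = 6.55e-12) and 1.09-fold with SA (adjusted p = 4.77e-04). The 1.05-fold difference with DFO (adjusted p = 0.0331) was lost without control replicate 1 or 3 or DFO replicate 1 or 2 (up to 0.0995). Gpx4, which reduces lipid peroxides in membranes, was at 683 ± 11.9 TPM with DTPA, 802 ± 27.8 with DFO and 786 ± 10.7 with SA against 856 ± 6.92 TPM in control. It was called lower in each (adjusted p = 2.40e-07, 0.0341 and 0.00412), with DFO lost without any 1 of the control replicates or DFO replicate 1 (up to 0.0984) and with the replicate number as a block (0.0544). Gpx1 lies on chromosome 9 from 108338903 to 108340343.

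Cat, catalase, a heme enzyme that breaks down hydrogen peroxide, fell in steps. It stood at 1030.2, 1016 and 1027 TPM in control, 870.1, 889.6 and 892 with DFO, 735, 751 and 737 with SA and 619.7, 641 and 631 with DTPA. The 4 groups did not overlap, and each neighbouring pair in this order differed by the direct test: DFO below control (1.16-fold, adjusted p = 6.74e-05), SA below DFO (1.19-fold, adjusted p = 6.03e-06) and DTPA below SA (log2 fold change -0.23, adjusted p = 2.54e-07). The last of these depends on the scaling, being -0.04 in log2 for Cat under median-of-ratios scaling (adjusted p = 0.0700). Cat lies on chromosome 2 from 103453849 to 103485160.

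The 6 peroxiredoxins did not move as one. Prdx2, the most abundant peroxidase of red cells after Gpx1 in this list, fell 1.49-fold with DTPA, from 2962, 2905 and 2863 TPM to 1966, 1918 and 1989.9 TPM (adjusted p = 2.25e-10). It lay 1.05-fold below control with SA (adjusted p = 0.0238; lost without control replicate 1 or 2 or SA replicate 2 or 3, up to 0.0804) and did not pass with DFO (adjusted p = 0.149; 0.0182 under median-of-ratios scaling). Its exons overlap Rnaseh2a and Junb on the opposite strand, which averaged 126 and 104 TPM in control and 53.8 and 72.6 TPM with DTPA; their part in the Prdx2 values was not tested. Prdx1, a cytosolic relative, fell 1.38-fold with DTPA, 1.10-fold with DFO and 1.21-fold with SA, from 538 ± 15.4 TPM to 389 ± 7.54, 489.6 ± 6.82 and 443 ± 10.4 TPM (adjusted p = 1.33e-08, 0.00699 and 1.86e-05).

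Prdx6, which reduces phospholipid peroxides and draws on glutathione, rose with DTPA. It was at 793, 796 and 791 TPM in control, 1219, 1201 and 1212 with DTPA, 808, 813 and 794 with DFO and 704, 707 and 689 with SA. The DTPA libraries stood alone above the rest and the SA libraries alone below, giving a 1.53-fold rise with DTPA (adjusted p = 2.17e-11) and a 1.13-fold fall with SA (adjusted p = 1.39e-05). Prdx3, the mitochondrial peroxiredoxin, rose 1.12-fold with DTPA (1389 ± 17.6 against 1240.0 ± 10.9 TPM, adjusted p = 3.23e-05). Its 1.05-fold difference with SA (adjusted p = 0.0320) was lost in 5 of the 6 fits without 1 library, all but that without SA replicate 2, and under median-of-ratios scaling (0.661). Prdx4, of the endoplasmic reticulum, and Prdx5 fell 1.37-fold and 1.17-fold with DTPA (adjusted p = 3.01e-05 and 8.09e-04, the latter 0.109 under median-of-ratios scaling) and did not pass with DFO or SA. Sod2, the mitochondrial superoxide dismutase, was at 16.3 ± 0.682 TPM in control and passed only with SA (14.1 ± 0.217 TPM, adjusted p = 0.00764), where it also lay below DFO (adjusted p = 0.0103). Prdx6 lies on chromosome 1 from 161240112 to 161251219 and Prdx2 on chromosome 8 from 84969587 to 84974834.

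Glutathione transferases, which attach glutathione to electrophiles, were scarce apart from Mgst3 and Gstp1. Mgst3, a microsomal enzyme, was at 44.6, 39.6 and 41.6 TPM in control and 15.5, 18.8 and 17.7 TPM with DTPA, 2.42-fold lower (adjusted p = 7.28e-08). With SA it was at 37.0, 34.0 and 34.2 TPM (adjusted p = 0.0460), a call lost on leaving out any 1 of the 6 libraries (up to 0.143). Its relative Mgst2 went the other way, from 0, 0.142 and 0.309 TPM in control to 4.93, 3.20 and 4.74 TPM with DTPA, and was at or below 0.146 TPM with DFO and SA. The control values rest on 0, 4 and 8 reads and the DTPA values on 130, 96 and 141 reads. Since Mgst2 passed the filter through the DTPA libraries alone, these values are a description with no test. Gsto1 fell 1.33-fold with DTPA (8.11 ± 0.127 to 6.10 ± 0.544 TPM, adjusted p = 0.00401), and its DFO and SA libraries all lay above control without passing (10.1 ± 1.02 and 9.73 ± 1.15 TPM, adjusted p = 0.0687 and 0.0959; 0.0492 for SA without SA replicate 2). Gstp1, at 15.3 ± 2.15 TPM in control, has near-identical neighbouring copies, so its count is uncertain; Gsta4 was near 1 TPM. Mgst2 lies on chromosome 3 from 51660360 to 51682677 and Mgst3 on chromosome 1 from 167371966 to 167393841.

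**Figure D3:**
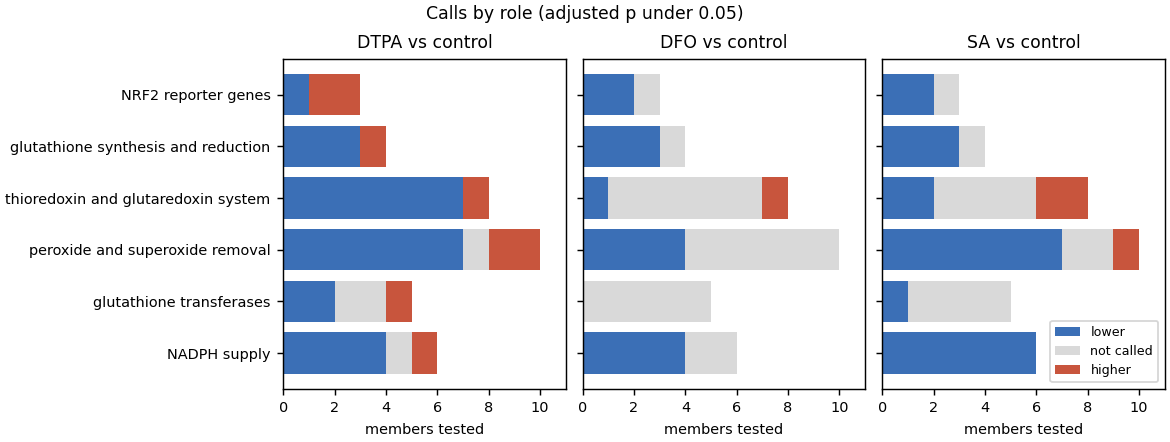
Number of tested members (horizontal axes) called lower, called higher or not called at an adjusted p of 0.05 in each role group, for DTPA, DFO and SA against control. All 6 NADPH genes were lower with SA, and no glutathione transferase was called with DFO. The only glutathione transferase counted as higher with DTPA is Mgst2, which passed the filter through the DTPA libraries alone.

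Of the 6 members that form NADPH or feed the pathways that do, 6 fell with SA, 4 fell and 1 rose with DTPA, and 4 fell with DFO. G6pdx, glucose-6-phosphate dehydrogenase, the entry to the pentose phosphate pathway, was at 198, 187 and 198 TPM in control, 129.9, 128 and 132 with DTPA, 155, 159.6 and 159 with DFO and 131, 132 and 136 with SA. Every treated library lay below every control. It fell by 0.58 in log2 with DTPA (SE 0.0267, adjusted p = 3.25e-09), 1.23-fold with DFO (adjusted p = 1.07e-04) and 1.46-fold with SA (adjusted p = 2.68e-07). DTPA and SA overlapped for G6pdx and their difference missed the threshold (adjusted p = 0.294; under median-of-ratios scaling DTPA was higher by 0.16, adjusted p = 2.43e-04). Its exons overlap Ikbkg on the opposite strand, which averaged 32.1 TPM in control, 36.8 with DTPA, 32.8 with DFO and 34.7 with SA, and its part in the G6pdx values was not tested. Pgd, phosphogluconate dehydrogenase, the second NADPH-forming step, was at 82.9, 74.8 and 74.4 TPM in control, 42.1, 41.4 and 40.8 with DTPA, 70.0, 67.8 and 67.7 with DFO and 53.0, 52.9 and 51.5 with SA. Its falls were 1.87-fold, 1.13-fold and 1.48-fold (adjusted p = 1.81e-09, 0.0164 and 2.95e-06), the DFO call being lost without DFO replicate 2 or 3 (up to 0.0563). G6pdx lies on chromosome X from 74409483 to 74429194 and Pgd on chromosome 4 from 149149991 to 149166771.

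Tkt and Taldo1 belong to the non-oxidative branch, which returns pentoses to glycolysis. Tkt, transketolase, was the highest NADPH-supply member at 1086, 1043 and 1089 TPM in control, with 747, 746 and 734 TPM with DTPA, 1023, 1088 and 1049 with DFO and 982, 1000.3 and 988 with SA. It fell 1.45-fold with DTPA (adjusted p = 2.84e-09) and 1.08-fold with SA (adjusted p = 0.00566). Taldo1, transaldolase, fell 1.16-fold with SA and 1.09-fold with DFO (723 ± 6.10 and 770.3 ± 6.68 against 841 ± 10.3 TPM, adjusted p = 9.68e-06 and 0.00151). With DTPA it was at 825 ± 16.1 TPM and did not pass, and it was called higher with median-of-ratios scaling (0.11, adjusted p = 0.00167) and by 0.05 with voom on recovered reads (adjusted p = 0.0409).

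Outside the pentose pathway the 2 cytosolic dehydrogenases parted. Me1, malic enzyme, was at 14.7, 15.6 and 16.8 TPM in control, 4.42, 5.62 and 4.82 with DTPA, 11.0, 12.0 and 13.1 with DFO and 6.32, 6.41 and 7.11 with SA. The groups did not overlap, and the falls were 3.17-fold with DTPA (adjusted p = 2.75e-08) and 2.37-fold with SA (adjusted p = 6.23e-06). With DFO the fall was 1.31-fold (adjusted p = 0.0241), lost without control replicate 2 or 3 or DFO replicate 1 or 2 (up to 0.0892). Idh1, cytosolic isocitrate dehydrogenase, rose 1.35-fold with DTPA and fell 1.27-fold with SA: 449, 436 and 441 TPM in control became 583, 603 and 608 TPM with DTPA (adjusted p = 2.26e-09) and 349, 348 and 346 TPM with SA (adjusted p = 6.79e-07). With DFO Idh1 was at 454, 454 and 446 TPM and did not pass. Me1 lies on chromosome 9 from 86581371 to 86695953 and Idh1 on chromosome 1 from 65158616 to 65186500.

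Compared directly, SA and DFO differed in 19 of the 36 members (52.8%, background 13.5%): 16 were higher with DFO (background 7.22%) and 3 higher with SA (background 6.30%). Of the 14 members lower with both, 11 were lower with SA than with DFO, the exceptions being Nqo1, Gpx1 and Gpx4. Gpx1 (adjusted p = 0.0603) was called higher with DFO than with SA under a 5 TPM filter (0.0470), without globin genes (0.0397) and with voom (0.0345). Among those higher with DFO the widest gap was that of Me1, 0.77 in log2 (SE 0.0879, adjusted p = 1.88e-04), followed by Srxn1 (0.46), Idh1 (0.38) and Pgd (0.38). All 6 NADPH genes were lower with SA than with DFO, although the Tkt difference (0.09, adjusted p = 0.0344) was lost in 5 of 6 fits without 1 library, all but that without DFO replicate 1 (up to 0.114). The 3 higher with SA were Txnrd2 (0.40 in log2, adjusted p = 4.69e-06), Txnip (0.30, adjusted p = 5.06e-04) and Prdx3 (0.08, adjusted p = 0.0409, lost without DFO replicate 2 or 3 or SA replicate 1 or 3, at up to 0.141).

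**Figure D4:**
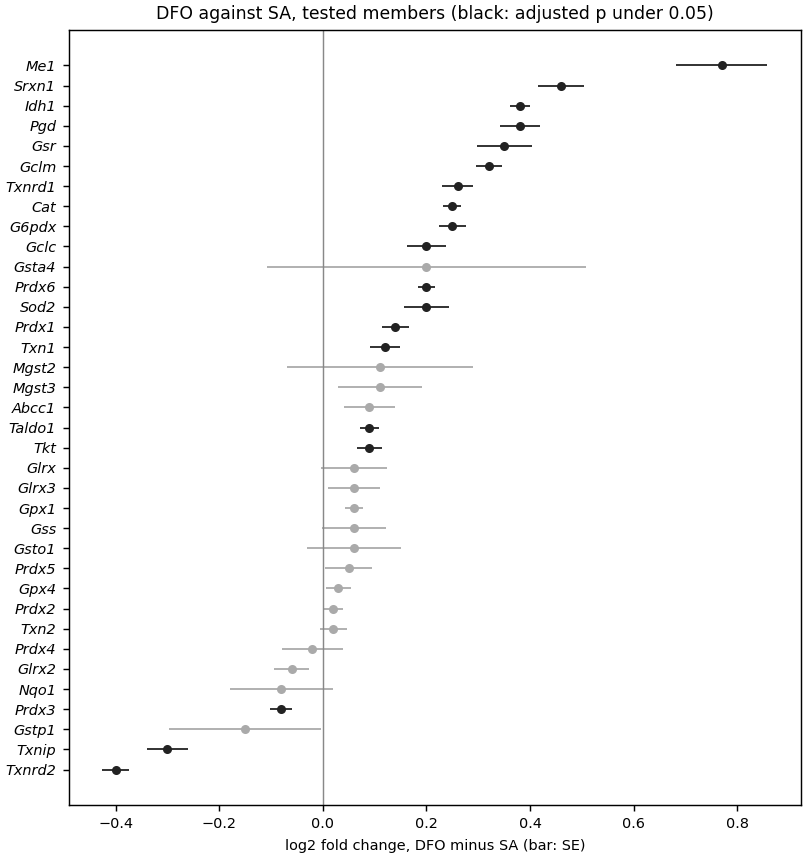
Log2 fold change of DFO minus SA (horizontal axis, bar: SE) for the 36 tested members, ordered by size; black points have an adjusted p under 0.05. Me1 is farthest to the right at 0.77 and Txnrd2 farthest to the left at -0.40.

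DTPA differed from DFO in 32 of 36 members (9 higher, 23 lower; background 19.6% higher and 46.4% lower) and from SA in 32 (11 higher, 21 lower; background 20.1% higher and 47.0% lower). With median-of-ratios scaling the counts were 12 higher and 19 lower against DFO and 13 and 15 against SA. Each of these counts of higher members includes Mgst2, which passed the filter only through the DTPA libraries. Members higher with DTPA than with either of the others included Srxn1, Abcc1, Txnip, Prdx6 and Idh1, these 5 with an adjusted p of 1.20e-08 or less in both comparisons.

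Other genes of the same pathways, from lists beside the 39, did not share one direction. Their counts can be read beside the shares over all genes tested, which were 23.5% higher and 42.1% lower with DTPA, 8.39% and 2.28% with DFO, and 15.4% and 6.75% with SA. Of 11 regulators and partners of NRF2 and BACH1, all tested, 3 rose and 4 fell with DTPA, 1 rose and 4 fell with DFO and 2 rose and 4 fell with SA. Hmox1, heme oxygenase 1, which BACH1 represses, fell with every treatment, from 147, 148 and 149 TPM to 68.9, 69.9 and 61.5 with DTPA, 94.2, 100.0 and 105 with DFO and 55.2, 60.7 and 55.2 with SA (adjusted p = 4.77e-09, 1.44e-04 and 5.90e-08). The genes of NRF2 and BACH1 themselves moved little. Nfe2l2, which encodes NRF2, was at 147 ± 1.68 TPM in control and 141 ± 2.15 with DTPA (adjusted p = 0.0404). It was at 154 ± 3.43 with DFO (adjusted p = 0.102) and 137 ± 3.09 with SA (adjusted p = 0.0128). Bach1 was at 398 ± 4.74, 439.9 ± 5.16, 397 ± 13.1 and 398 ± 7.94 TPM in the same order, with only DTPA called (0.14 in log2, adjusted p = 2.64e-04). Keap1, the sensor that marks NRF2 for degradation, did not pass in any (33.7 ± 1.90, 37.0 ± 1.89 and 33.6 ± 1.91 against 35.5 ± 1.05 TPM). Mafg, on the same list, was lower with DTPA, DFO and SA (106 ± 1.46, 98.2 ± 3.82 and 92.0 ± 1.97 against 111 ± 0.716 TPM, adjusted p = 0.0413, 0.00283 and 5.57e-05). Nfe2 was higher with DTPA and SA and lower with DFO (545 ± 8.15, 622 ± 13.3 and 475 ± 6.77 against 526 ± 4.41 TPM, adjusted p = 0.0387, 8.77e-06 and 0.00117). Sqstm1, an autophagy receptor that binds KEAP1, was at 383 ± 4.46 TPM with DTPA, 294 ± 4.40 with DFO and 264 ± 4.87 with SA against 312 ± 4.51 TPM, thus higher with DTPA and lower with DFO and SA, as Srxn1 was (adjusted p = 8.96e-08, 0.0246 and 1.02e-05).

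Of 30 further glutathione genes 9 were tested: 3 rose and 5 fell with DTPA, 1 rose and 1 fell with DFO, and 2 rose and 1 fell with SA. Esd, which hydrolyses S-formylglutathione, fell with all 3 treatments and furthest with SA (84.8 ± 1.26 against 147 ± 5.14 TPM, 1.74-fold, adjusted p = 3.94e-08). Hagh, a glyoxalase that frees glutathione, fell 2.05-fold with DTPA (adjusted p = 5.00e-12). Slc3a2, the heavy chain of the cystine importer, rose 1.39-fold with SA (adjusted p = 7.01e-08) and 1.10-fold with DFO, and fell 1.59-fold with DTPA. Of 18 further thioredoxin-fold, repair and dismutase genes 14 were tested, with 1 higher and 10 lower with DTPA, 3 and 2 with DFO, and 2 and 3 with SA. Txndc17, a thioredoxin-like protein gene, fell 2.12-fold with DTPA (adjusted p = 7.03e-11) and rose 1.12-fold with DFO and SA, and Sesn2, sestrin 2, rose 1.51-fold with SA (adjusted p = 6.06e-08).

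Of 16 further NADPH-linked genes 11 were tested, with 0 higher and 9 lower with DTPA, 2 and 0 with DFO, and 2 and 3 with SA. Mthfd1l, of mitochondrial folate metabolism, fell 7.66-fold with DTPA (9.14 ± 1.12 to 1.19 ± 0.0899 TPM, adjusted p = 1.18e-09), while Mthfd2, of the same pathway, fell with DTPA and rose with DFO and SA (56.1 ± 1.21, 109 ± 1.54 and 132 ± 4.65 against 94.9 ± 4.31 TPM). Rpia, of the non-oxidative pentose branch, fell 1.92-fold with DTPA (adjusted p = 1.88e-11). Of 17 genes of selenocysteine insertion or other selenoproteins 14 were tested, with 2 higher and 9 lower with DTPA, 3 and 0 with DFO, and 3 and 1 with SA. Selenow, at 4122 ± 59.7 TPM in control more abundant than Gpx1, fell 1.64-fold with DTPA to 2519 ± 19.9 TPM (adjusted p = 4.19e-11) and was called 1.06-fold higher with DFO and with SA. Sephs2, which makes the selenium donor, rose with each treatment (93.5 ± 3.11, 79.5 ± 1.04 and 80.5 ± 2.06 against 70.0 ± 2.82 TPM, adjusted p = 6.03e-07, 0.00711 and 0.00175).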

How the data were processed

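Polyadenylated RNA of 12 libraries, 3 per group, was sequenced after strand-specific library preparation, per the labels' protocols. Groups and replicate numbers came from the sample titles. Per the submitters' processing notes, Trimmomatic 0.33, FastQC, HISAT2 2.1.0, featureCounts and edgeR were used with build mm10; counting strand and annotation release are not stated. The authors deposited TPM values, 1 table per library. Of 55487 rows, 234 carried 1 of 114 repeated symbols, and the copy with the highest mean was kept.

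The test was limma 3.58.1 (R 4.3.3) on log2(TPM + 1), a mean for each of the 4 groups without covariates, with the prior variance allowed to follow abundance. Its p-values set a difference of group means against the spread between these replicates, estimated over all 12 libraries. Reads were recovered from TPM and exon length (GENCODE M21): between 98.8% and 99.0% of values up to 200 reads came out whole within 0.1 read. No 2 replicates were alike within counting error (chi-square over degrees of freedom from 2.04 to 5.61 in 12 pairs). The fit was tested on simulated data. Exons of 10 members overlap another gene; some items bearing on these and on the marker lists are not reported here. The members and lists were chosen with earlier results of these data known. Members called and changed by at least 1.5-fold, called in opposite directions, or most abundant in their role were given by library. Other genes were the up to 3 largest called changes per list, with Nfe2l2, Bach1, Keap1, Hmox1, Mt1 and Tfrc; not all are printed, and others printed were chosen after their values were seen. Other settings tried were a pseudocount of 0.1 or 5, no filter, a minimum of 5 TPM, scaling by median of ratios, removal of 11 globin genes, only the 6 libraries compared, a replicate block, leaving out each library, and limma's voom on recovered reads (at least 10 in 3 libraries). Tables and plots used Python 3.11.15, numpy 2.4.6, pandas 2.3.3 and matplotlib 3.10.9.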

Additional observations from a re-analysis of the deposited data

How the results depend on the processing

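Counts of members called higher or lower stayed within 1.5 times the reported count under every alternative for 5 of the 6 comparisons. For DFO against control the single higher member was lost under median-of-ratios scaling (0), leaving out 1 library gave between 0 and 1 higher, and the genes called among all tested went from 1272 to 802 with only the 6 libraries compared and to between 840 and 960 without 1 library. Among differences past the threshold in the reported fit or the alternative, directions turned under median-of-ratios scaling and, for Taldo1, also with voom; turns of differences past it in neither are not listed. With DTPA against control they were Glrx2 (0.04) and Taldo1 (0.11; 0.05 with voom). With DTPA against DFO they were Sod2 (0.14) and Glrx2 (0.08). With DTPA against SA they were Prdx1 (0.00), Prdx5 (0.03), Glrx2 (0.02) and G6pdx (0.16). The cause was not tested. Same-numbered replicates did not deviate together (correlations between -0.04 and 0.05, 18 pairs, 6 best with their own number), so the number is no pairing; as a replicate block it gave 24 members lower with DTPA, 13 with DFO and 20 with SA, the calls lost being Gpx4 with DFO (adjusted p = 0.0544) and Mgst3 with SA (0.0661). For DFO against SA it gave 15 higher and 2 lower, without Tkt and Prdx3.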
